A study of Homo sapiens with 8 samples.

Results

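The calpain genes were examined in SAS/GFP cells that received 1 of 3 miRNA mimics or a control RNA. The parental line SAS was established from a squamous carcinoma of the human tongue, and SAS/GFP is its derivative with a GFP vector, the control line of the study. The sample labels name the cells only as SAS, grown with puromycin. The transfected RNA, at 25 nM in each of the 4 groups, was a mimic of miR-629-3p, one of miR-210-3p, one of miR-874-3p, or a negative control (NC). There were 2 arrays per group, 8 in all. The labels give 48 h from transfection to RNA extraction, whereas the study's methods give a shorter time. Total RNA was labelled in 1 colour and hybridised to Agilent human gene expression arrays that all lay on 1 slide. Neither source says that the 2 arrays of a group came from separate cultures, so the p-values measure the spread between these arrays, which may be technical.

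The 10 genes are CAPN1, CAPN2, CAPN5, CAPN7, CAPN8, CAPN9, CAPN10, CAPN13, CAPN15 and CAPNS1, picked by the gene name printed on the array out of 43317 names. They were chosen as the family of CAPN8, which ranked first of all 21283 tested genes by its log2 difference in miR-629-3p against NC. The NC signals of CAPN8 were too low to measure, so this rank rests on values that the scanner software had put in their place. Because CAPN8 was chosen in this contrast, the values of the 10 genes in miR-629-3p against NC are given below as a description without a test. The 10 genes had 14 probes on the array, 1 each for 6 genes and 2 each for CAPN8, CAPN10, CAPN13 and CAPN15. All but CAPN9, so 9 of the 10 genes, had a probe with signal well above background on both arrays of some group and entered the fit.

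Calpains are cysteine proteases of the cytosol that are activated by calcium and cut their substrates at few sites, so that proteins are modified rather than destroyed. The ubiquitous calpains, whose catalytic subunits are CAPN1 and CAPN2, pair with the small subunit CAPNS1 and are held in check by the inhibitor calpastatin (CAST). They are best known for cutting cytoskeletal and adhesion proteins during cell spreading and migration. Other members are tissue-restricted, and CAPN8 and CAPN9 are known from the mucous cells of the stomach, where they work as a complex.

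The mature sequences of the 3 miRNAs are printed first, because the mimics are what distinguishes the groups. They are from RefSeq (GRCh38.p14), in lower case with the seed, bases 2 to 8 counted from the 5′ end, in capitals. All 3 genes lie on the minus strand, on chromosomes 15, 11 and 5 in the order shown, and the 3 seeds differ from each other.
miR-629-3p: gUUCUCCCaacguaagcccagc
miR-210-3p: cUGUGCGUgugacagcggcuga
miR-874-3p: cUGCCCUGgcccgagggaccga

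CAPN8 was read by 2 probes, shown here because the main result rests on them. Probe A_33_P3342752 lies at chr1:223805041-223805100 and probe A_23_P94782 at chr1:223718652-223722730, both on the minus strand of hg19. The second interval is 4079 bases long for a probe of 60 bases, so this probe crosses an intron. Of the first probe, designed on an Ensembl transcript, the first 30 of 60 bases are given, and the other is given whole, each as the array file lists it.
A_33_P3342752: tatgggatccacagatatccggctttaaaa
A_23_P94782: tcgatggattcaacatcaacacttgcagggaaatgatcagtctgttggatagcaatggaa

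The longest run of bases shared by any pair of the 14 member probes was 8, so none of them was a near copy of another. The sites that pair with the seeds were searched in the probes on both strands. These sites are GGGAGAA for miR-629-3p, ACGCACA for miR-210-3p and CAGGGCA for miR-874-3p. None of the 14 member probes held any of them on either strand. Over all 58201 gene probes, 0.747% held the miR-629-3p site, 0.131% the miR-210-3p site and 0.387% the miR-874-3p site as the probe is written, and 0.588%, 0.143% and 0.555% on the other strand. The probes cover only a small part of each transcript.

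Signals are given as log2 relative to the 75th percentile of the array, so that 0 is that percentile and 1 unit is a 2-fold difference. A probe was detected where the scanner software flagged it as well above background. Levels of different probes cannot be compared with each other, and each probe is compared only with itself across arrays. In this kind of sample, fewer expressing cells and less RNA per cell cannot be told apart. Between 24559 and 29008 of the 58201 gene probes were detected per array, most on the miR-629-3p arrays and fewest on the NC arrays. The dimmest detected signal was lowest on the miR-629-3p arrays (-3.74, -3.59), then miR-210-3p (-3.39, -3.42), miR-874-3p (-3.21, -2.85) and NC (-2.84, -2.82). Row 1 of the slide held miR-629-3p beside miR-210-3p, and row 2 held miR-874-3p beside NC. Row and mimic cannot be told apart except between groups that share a row. This limit holds for every contrast below of miR-629-3p or miR-210-3p with NC or miR-874-3p.

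CAPN8, the stomach calpain, was bright only after miR-629-3p. Its probe A_33_P3342752 read 0.79 and 0.52 (miR-629-3p), -3.08 and -3.24 (miR-210-3p), -5.48 and -2.75 (miR-874-3p), and -5.11 and -5.10 (NC). It was detected on 5 of 8 arrays, namely both miR-629-3p arrays, both miR-210-3p arrays and 1 of the 2 miR-874-3p arrays. On the other miR-874-3p array and on both NC arrays the scanner software had put a substitute in place of a signal too low to measure. In units of the scanner the processed signal was 131 and 106 after miR-629-3p, 8.60 and 7.78 after miR-210-3p, 10.8 on the miR-874-3p array where it was detected, and 2.05 to 2.21 on the NC arrays. The miR-629-3p arrays stood apart from all 6 other arrays, whose detected values lay just above the dimmest signal those arrays could detect.

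The fitted difference in CAPN8 between miR-629-3p and NC was 5.76 (SE 0.82) on the log2 scale. Since NC gave no measured signal, the measured result is a bound, and the level with miR-629-3p was at least 11.2-fold that with NC. Against miR-210-3p, where both groups were measured and share a slide row, the difference was 3.81 (SE 0.82), or 14.0-fold. Against miR-874-3p it was 4.77 (SE 0.82), but the 2 miR-874-3p arrays lay far apart, and the difference was 3.41 against the one where the probe was detected. These values are from the gene that was chosen for its rise and carry no test.

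The second CAPN8 probe gave the same order of groups at the top. A_23_P94782 read -2.22 and -2.57 with miR-629-3p and between -5.55 and -4.94 on the 6 other arrays. It was detected on both miR-629-3p arrays and on none of the others, where all 6 values were substitutes. The level with miR-629-3p was at least 1.35-fold that with NC, 2.01-fold that with miR-210-3p and 1.55-fold that with miR-874-3p. These bounds are low because the probe itself was only slightly above the dimmest signals that the other arrays could detect.

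**Figure D1:**
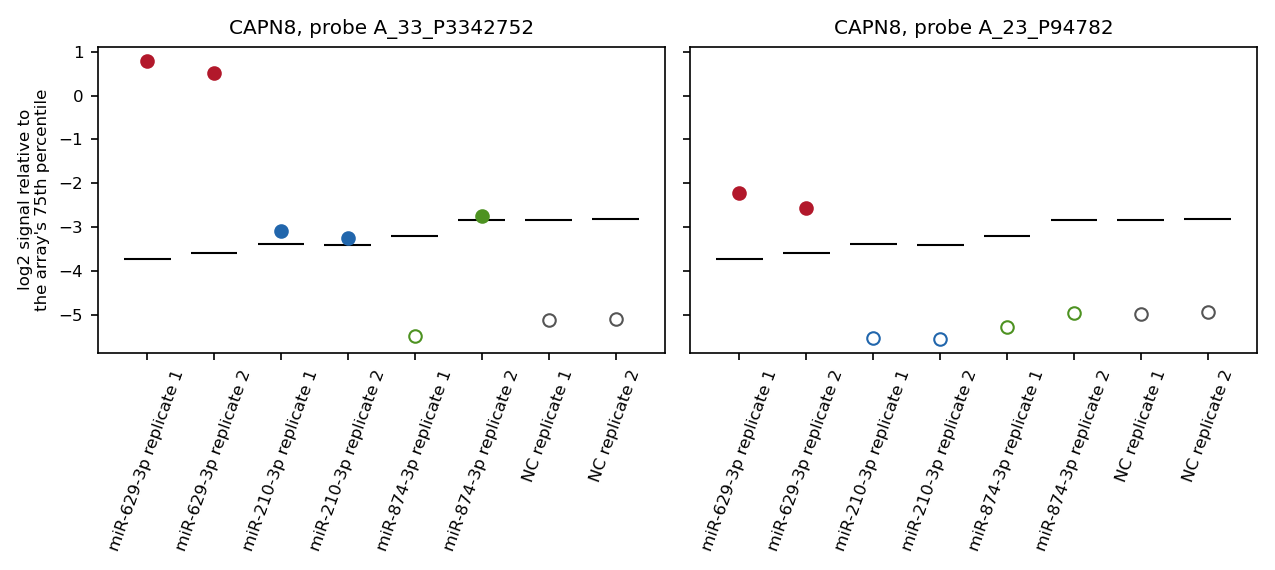
CAPN8 signal (log2 relative to the array's 75th percentile, y axis) on each of the 8 arrays (x axis) for its 2 probes. Filled points were well above background, open points were not, and the horizontal line at each array is its dimmest detected signal. Both probes stand clear of that line on the 2 miR-629-3p arrays, while the first probe is detected just above it on 3 further arrays and the NC points are open.

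Below miR-629-3p the order of the CAPN8 levels could not be settled. CAPN8 was chosen by its difference from these same NC arrays, so its p-values against NC are not an independent test. The miR-210-3p arrays (-3.16 ± 0.11, SD, n = 2) lay above both NC arrays, with a fitted difference of 1.95 (SE 0.82, 95% limits -0.08 to 3.98, adjusted p = 0.206). Here and below, an adjusted p is limma's, Benjamini-Hochberg adjusted across the 21283 genes, and a gene was called at an adjusted p under 0.05. No fold is given, because the miR-210-3p signals were lower than the dimmest signal the NC arrays could detect. With undetected values raised to that limit the difference became -0.33. Whether the difference of 1.95 was called turned on the miR-874-3p arrays, which share the estimate of the spread. Its adjusted p was 0.0479 when only the 2 groups were fitted, but both NC values there are substitutes, which lie close together (-5.11 and -5.10). Between miR-874-3p and NC the difference was 0.99 (SE 0.82, 95% limits -1.04 to 3.02, adjusted p = 0.593), and it was 2.35 without miR-874-3p replicate 1 and -0.37 without replicate 2, in each case against NC arrays with no measured signal. Between miR-210-3p and miR-874-3p it was 0.96 (SE 0.82, adjusted p = 0.502), -0.41 without miR-874-3p replicate 1 and 2.32 without replicate 2. With a replicate left out, miR-874-3p is 1 array, and without replicate 2 its value is a substitute.

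CAPN9, the stomach partner of CAPN8, was detected on none of the 8 arrays. Its probe (A_23_P149427, chr1:230928235-230928649) read between -6.04 and -4.93, and 6 of the 8 values were substitutes. Its lowest readings were those of the miR-629-3p arrays, -6.04 and -5.87, on the arrays with the lowest detection limits. No level or difference can be given for it.

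The ubiquitous calpains came next. CAPN2, the large subunit of m-calpain, is a neighbour of CAPN8 on chromosome 1 and its probe (A_23_P23924, chr1:223963400-223963459) was detected on all arrays. It read 7.98 and 7.90 (miR-629-3p), 7.68 and 7.66 (miR-210-3p), 7.55 and 7.55 (miR-874-3p), and 7.53 and 7.56 (NC). The miR-629-3p arrays were the highest, the miR-210-3p arrays followed without overlap, and the other two groups overlapped. CAPN2 was higher by 0.39 (SE 0.07), or 1.31-fold, with miR-629-3p than with NC. It differed by 0.13 (SE 0.07, 95% limits -0.04 to 0.30, adjusted p = 0.30) between miR-210-3p and NC and by 0.01 (95% limits -0.16 to 0.18, adjusted p = 0.979) between miR-874-3p and NC.

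CAPN1, the large subunit of µ-calpain (A_23_P138835, chr11:64977906-64978326), varied within groups, most of all between the miR-874-3p arrays, which spanned most of the range of all 8. It read 2.56 and 2.87 (miR-629-3p), 2.24 and 2.06 (miR-210-3p), 2.12 and 2.82 (miR-874-3p), and 2.82 and 2.51 (NC). The miR-210-3p arrays lay below both NC arrays, by 0.51 in the mean (log2 difference -0.51, SE 0.26, 95% limits -1.16 to 0.14, adjusted p = 0.277). Neither that difference nor those of miR-874-3p passed the test.

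CAPNS1, the small subunit that both ubiquitous calpains need, read 4.79 and 5.03 (miR-629-3p), 4.68 and 4.64 (miR-210-3p), 4.63 and 4.91 (miR-874-3p), and 5.02 and 4.96 (NC) (A_23_P67648, chr19:36640809-36640868). Both miR-210-3p arrays and both miR-874-3p arrays lay under the NC arrays. The difference was -0.33 (SE 0.13, 95% limits -0.65 to -0.01, adjusted p = 0.183) for miR-210-3p and -0.21 (SE 0.13, adjusted p = 0.458) for miR-874-3p against NC. It was -0.07 (SE 0.13) for miR-629-3p.

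CAPN5, a calpain without the calcium-binding penta-EF-hand domain of the classical members and known from an inherited eye disease, was the member that passed the test in the contrasts that do not involve miR-629-3p. Its probe (A_33_P3393170, chr11:76837137-76837196) read 1.52 and 1.60 (miR-629-3p), 1.81 and 1.74 (miR-210-3p), 1.08 and 1.35 (miR-874-3p), and 1.11 and 1.01 (NC). The arrays of miR-210-3p were the highest, those of miR-629-3p lay between, and those of miR-874-3p and NC overlapped. CAPN5 rose by 0.72 (SE 0.11, 1.65-fold, adjusted p = 0.0263) with miR-210-3p against NC, and it was higher by 0.56 (SE 0.11, 1.47-fold, adjusted p = 0.0363) with miR-210-3p than with miR-874-3p. The miR-629-3p arrays exceeded NC by 0.50 (SE 0.11), and the difference between miR-874-3p and NC was 0.16 (SE 0.11, 95% limits -0.11 to 0.43, adjusted p = 0.509). Both called contrasts of CAPN5 cross the rows of the slide, so row and mimic cannot be told apart in them. Between the groups that share row 1, miR-629-3p differed from miR-210-3p by -0.22 (SE 0.11).

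The CAPN5 calls held on the size of the difference but not on the test when arrays were left out. Without any 1 of the miR-629-3p, miR-210-3p or NC arrays, the difference between miR-210-3p and NC stayed between 0.67 and 0.77 with an adjusted p of 0.0594 to 0.113. That between miR-210-3p and miR-874-3p stayed between 0.52 and 0.59 with an adjusted p of 0.0687 to 0.163. Both calls were kept without either miR-874-3p array. With the replicate number as a block the adjusted p was 0.0636 and 0.0756.

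CAPN7, which carries domains that bind the membrane-sorting machinery in place of a calcium-binding domain, read 0.12 and 0.31 (miR-629-3p), 0.35 and 0.37 (miR-210-3p), 0.03 and 0.30 (miR-874-3p), and 0.05 and -0.01 (NC) (A_33_P3393175, chr3:15294322-15294381). The miR-210-3p arrays lay above both NC arrays, and the difference of 0.34 (SE 0.12, 95% limits 0.04 to 0.64, adjusted p = 0.148) did not pass the test. The differences were 0.20 (SE 0.12) for miR-629-3p and 0.15 (SE 0.12, adjusted p = 0.579) for miR-874-3p.

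CAPN10, known from genetic studies of type 2 diabetes, had 2 probes detected on all arrays. The brighter one (A_23_P341349, chr2:241538451-241538510) read 3.26 and 3.21 (miR-629-3p), 3.31 and 3.20 (miR-210-3p), 3.08 and 3.06 (miR-874-3p), and 3.16 and 3.09 (NC). All 8 values lay within a narrow range, and no difference passed the test (0.13, SE 0.07, adjusted p = 0.318 for miR-210-3p and -0.06, SE 0.07, adjusted p = 0.752 for miR-874-3p against NC). The dimmer one (A_33_P3343552, chr2:241534540-241534599) lay between -1.90 and -1.70 with NC and between -1.50 and -1.13 with miR-210-3p, a difference of 0.49 (SE 0.17, adjusted p = 0.142 over all detected probes).

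CAPN15, the human relative of the small optic lobes protein of flies, showed a difference between its probes. The brighter one (A_24_P282210, chr16:604502-604561) read 4.16 and 4.21 (miR-629-3p), 4.25 and 4.25 (miR-210-3p), 4.35 and 4.32 (miR-874-3p), and 4.33 and 4.33 (NC). The dimmer one (A_21_P0014306, chr16:589802-589858), which the array assigns to a separate Ensembl transcript, read 1.79 and 1.94, 1.62 and 1.58, 1.30 and 1.46, and 1.31 and 1.19 in the same order. The first was lowest and the second highest with miR-629-3p. Against NC the first differed by -0.15 (SE 0.06) and the second by 0.61 (SE 0.10) with miR-629-3p, and by -0.08 (SE 0.06, adjusted p = 0.469) and 0.35 (SE 0.10, adjusted p = 0.103 over all detected probes) with miR-210-3p. The difference between the probes was not tested.

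CAPN13, a member about which little is known, was near the limit of detection. Its brighter probe (A_23_P101972, chr2:30945768-30945827) read -2.94 and -1.56 (miR-629-3p), -2.87 and -2.74 (miR-210-3p), -3.37 and -3.08 (miR-874-3p), and -3.99 and -2.22 (NC). It was detected on 5 arrays, including 1 of the 2 NC arrays, and the NC pair spanned the values of both other groups tested. The difference from NC was 0.30 (SE 0.67, 95% limits -1.36 to 1.96, adjusted p = 0.818) with miR-210-3p and 0.86 (SE 0.67) with miR-629-3p. The other CAPN13 probe (A_24_P336983) was detected on no array.

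**Figure D2:**
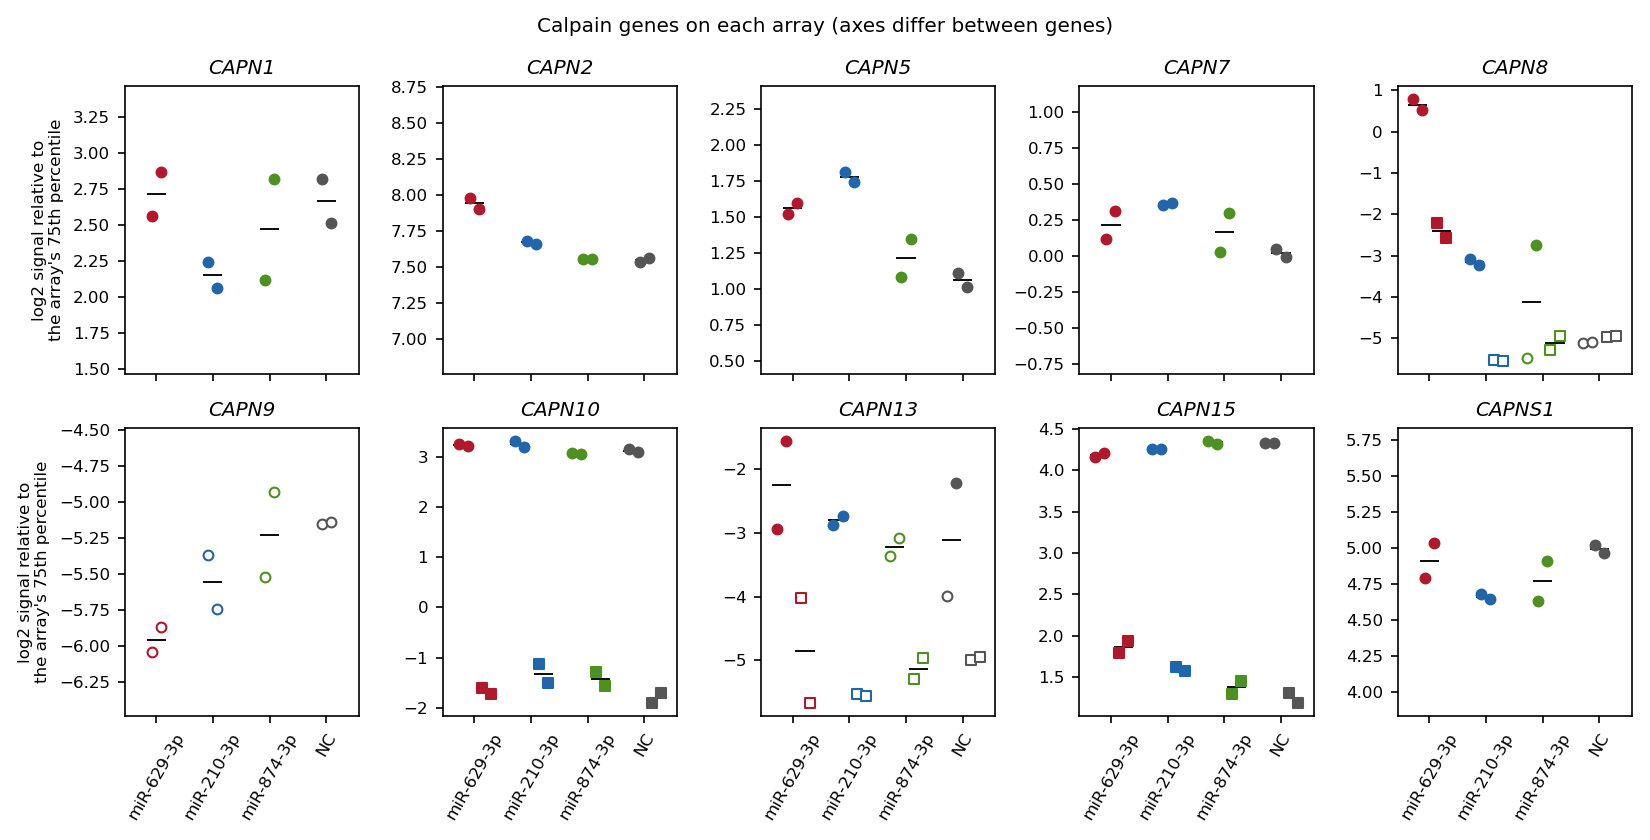
Signal (log2 relative to the array's 75th percentile, y axis, with its own range for each gene) of the 10 calpain genes in the 4 groups (x axis). Each point is 1 array, filled where the probe was well above background and open where it was not, circles and squares are different probes of a gene, and short lines are group means of 2 arrays. Only CAPN8 shows a separation of several log2 units, with miR-629-3p on top, while CAPN2 and CAPN5 show separations below 1.

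Counted over the family, 1 of the 9 genes tested rose (CAPN5) and 0 fell with miR-210-3p against NC, where 3.85% of all genes rose and 2.20% fell. Of the 9, 3 were under an unadjusted p of 0.05 (CAPN5, CAPN7 and CAPNS1, the last lower), as were 26.0% of all genes. With miR-874-3p against NC, limma called 0 of 9 where 0.216% of all genes rose and 0.207% fell, 0 were under an unadjusted p of 0.05 (16.4% of all genes), and the test named in the study's methods called 0 after adjustment. Between miR-210-3p and miR-874-3p, 1 of 9 was higher (CAPN5) and 0 lower, against 6.33% higher and 3.47% lower over all genes. With 9 genes, 1 call is the smallest count above 0, and nothing particular to the family is read from it. In miR-629-3p against NC, 3 of the 9 were higher (CAPN8, CAPN2 and CAPN5) and 0 lower, beside 9.28% higher and 7.47% lower over all genes. CAPN8 was chosen by its rise in this contrast, so its place in the count was fixed in advance. The count is a description, and nothing is read from it. The median difference from NC of the 9 genes was 0.20 for miR-629-3p, 0.13 for miR-210-3p and 0.01 for miR-874-3p, beside 0.02, 0.05 and -0.01 over all genes. These comparisons share the NC arrays.

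**Figure D3:**
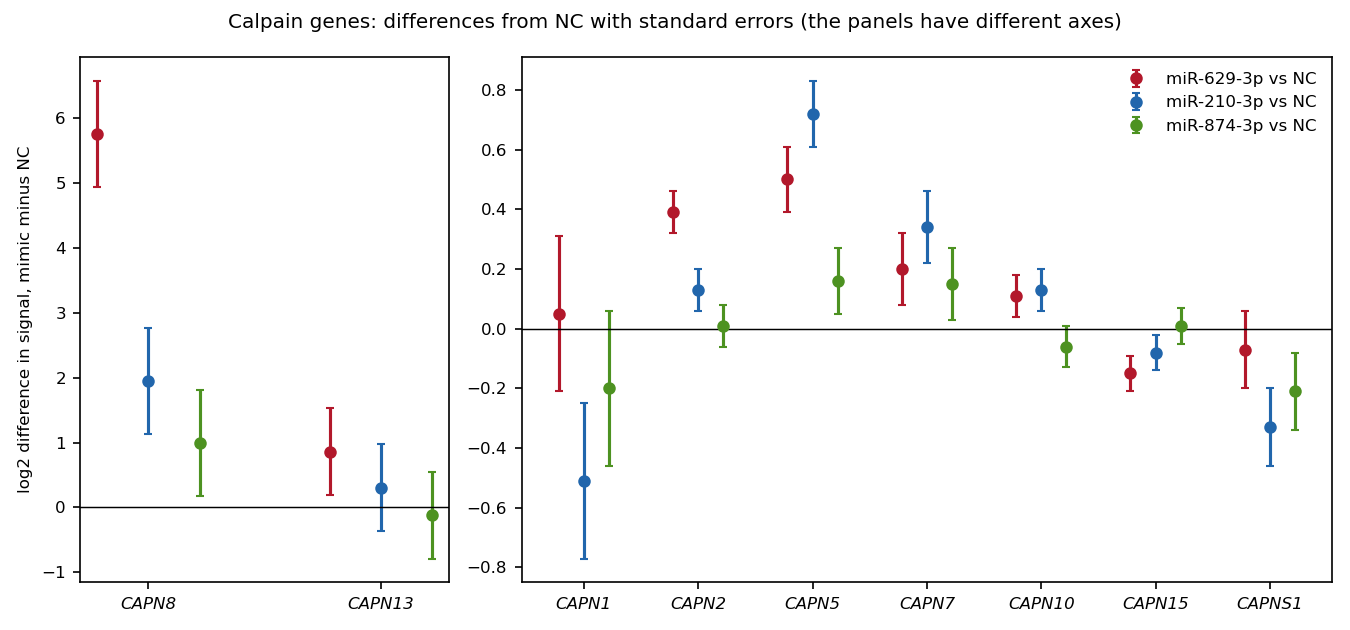
Log2 difference in signal between each mimic and NC (y axis, bars are standard errors of the limma fit, 2 arrays a group) for the 9 calpain genes tested (x axis). The left panel, with CAPN8 and CAPN13, has a wider axis, and there the CAPN8 points rest on NC arrays where the probe was not detected. On the right, with the other 7 genes, the largest differences are those of CAPN5 (0.72) and CAPN1 (-0.51, not called) with miR-210-3p and of CAPN5 with miR-629-3p (0.50), while all miR-874-3p points lie within 0.21 of 0.

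The rest of the calpain system was mostly unread by these arrays. Of CAPN3, the muscle calpain, CAPN6, which lacks the catalytic cysteine, CAPN11, CAPN12, CAPN14, CAPNS2 and CAST, 3 of 7 genes were tested (CAPN12, CAPNS2 and CAST). CAPN6 and CAPN11 were detected on no array. CAPN3 was detected on 1 array, NC replicate 2, where 1 of its 2 probes read 1.27 against -5.11 to -3.27 on the other arrays, and CAPN14 on 1 array, miR-629-3p replicate 1. With miR-210-3p 1 of the 3 fell and 0 rose (2.20% and 3.85% of all genes). For miR-629-3p limma called 0 of the 3 (9.28% of all genes rose and 7.47% fell), with 0 under an unadjusted p of 0.05 (33.6% of all genes). For miR-874-3p it called 0 (0.216% rose and 0.207% fell), with 0 under that p (16.4% of all genes). Nothing particular to these 3 genes is read from the counts.

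CAPNS2, the second small subunit, was the one that fell. It read 0.23 and 0.20 with miR-210-3p, 0.86 and 0.86 with NC, 0.57 and 0.85 with miR-874-3p, and 1.09 and 0.97 with miR-629-3p. The miR-210-3p arrays were the lowest and the miR-629-3p arrays the highest, without overlap. CAPNS2 fell by 0.65 with miR-210-3p (log2 difference -0.65, SE 0.11, adjusted p = 0.0345), and its differences from NC were 0.17 (SE 0.11, adjusted p = 0.327) with miR-629-3p and -0.15 (SE 0.11, adjusted p = 0.533) with miR-874-3p. CAST, the calpain inhibitor, read between 5.40 and 5.65 on all 8 arrays with its brighter probe, and its differences from NC were -0.16 (SE 0.08, adjusted p = 0.215) for miR-629-3p, 0.02 (SE 0.08, adjusted p = 0.906) for miR-210-3p and -0.07 (SE 0.08, adjusted p = 0.725) for miR-874-3p. Its dimmer probe (A_23_P213518) was also detected on all arrays. That probe differed from NC by 0.09 for miR-629-3p, 0 for miR-210-3p and -0.06 for miR-874-3p (SE 0.08 each). The adjusted p over all detected probes was 0.479, 0.987 and 0.78.

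The transcripts of 22 well-known calpain substrates were all tested. The arrays measure their RNA, and cleavage of the proteins was not measured. With miR-629-3p 2 of the 22 rose and 2 fell, beside 9.28% and 7.47% of all genes, and 10 were under an unadjusted p of 0.05, beside 33.6% of all genes. Nothing particular to the list is read from these counts. They rest on the brightest probe of each gene, and second probes are not in them. PRKCA, a protein kinase C that calpains convert to a free kinase, rose by 0.91 (SE 0.07, adjusted p = 0.00368), and NFKBIA, the inhibitor of NF-κB, rose by 0.56 (SE 0.12, adjusted p = 0.0297). VCL, the focal adhesion protein vinculin, fell by 0.41 (log2 difference -0.41, SE 0.10, adjusted p = 0.0492), and RHOA, a small GTPase of the actin cytoskeleton, fell by 0.32 (log2 difference -0.32, SE 0.07, adjusted p = 0.0385).

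With miR-210-3p 3 of the 22 substrate transcripts rose and 0 fell, beside 3.85% and 2.20% of all genes. SPTBN1, a spectrin of the membrane skeleton, read 4.25 and 4.18 after miR-210-3p against 3.07 and 3.06 after NC, and it rose by 1.15 (SE 0.07, 2.22-fold, adjusted p = 0.00561). PRKCA rose by 0.85 (SE 0.07, adjusted p = 0.00923), reading 2.18 and 2.14 against 1.31 and 1.30. PTPN1, a protein tyrosine phosphatase, rose by 0.53 (SE 0.09, adjusted p = 0.0375). These contrasts cross the slide rows, so row and mimic cannot be told apart in them. Within rows, PRKCA differed by 0.06 (SE 0.07) between miR-629-3p and miR-210-3p. It differed by 0.28 (SE 0.07, adjusted p = 0.157) between miR-874-3p and NC. With miR-874-3p limma called 0 of 22, where 0.216% of all genes rose and 0.207% fell, and 4 were under an unadjusted p of 0.05, beside 16.4% of all genes. The median difference of the 22 was -0.04 for miR-629-3p, 0.10 for miR-210-3p and -0.04 for miR-874-3p, close to the medians of all genes given above.

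**Figure D4:**
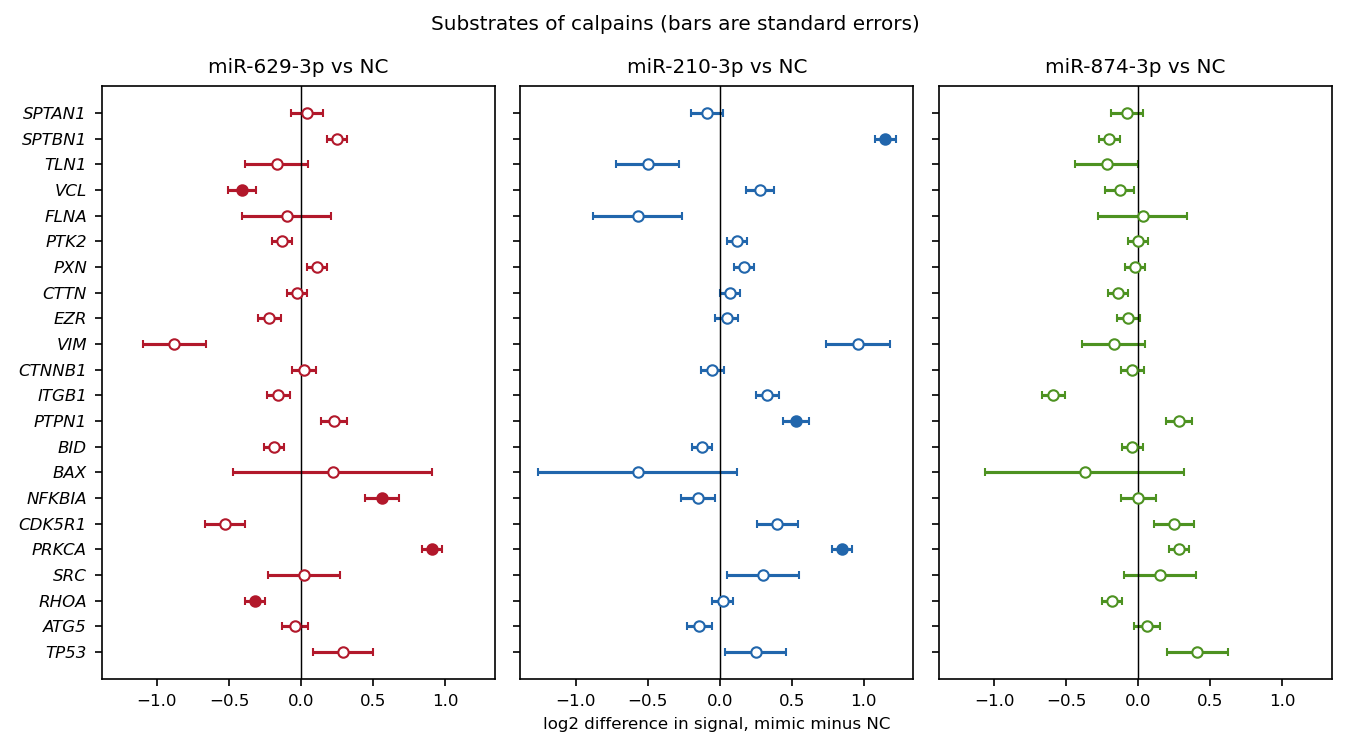
Log2 difference in signal between each mimic and NC (x axis, bars are standard errors) for 22 genes whose proteins are known calpain substrates (y axis), with 1 panel per mimic. Filled points passed the test at an adjusted p under 0.05. The filled points are 4 with miR-629-3p (2 on each side of 0), 3 with miR-210-3p (all higher) and 0 with miR-874-3p.

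Genes of the gastric mucous cells in which CAPN8 is known were mostly dim. Of MUC5AC, MUC6, TFF1, TFF2, GKN1, GKN2, CLDN18, ANXA10, VSIG1 and the coatomer gene COPB1, 6 of 10 were tested. GKN2, CLDN18 and VSIG1 were detected on no array and GKN1 on 1 array. With miR-629-3p 1 of the 6 rose, beside 9.28% of all genes. For miR-210-3p limma called 0 of the 6 (3.85% of all genes rose and 2.20% fell) with 0 under an unadjusted p of 0.05 (26.0% of all genes). For miR-874-3p it called 0 (0.216% rose and 0.207% fell) with 1 under that p (16.4% of all genes). Whether the mimics differed in this count was not tested.

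ANXA10, an annexin of the gastric epithelium, was the one that rose. It read -1.09 and -0.94 (miR-629-3p), -3.23 and -1.91 (miR-210-3p), -2.03 and -2.44 (miR-874-3p), and -3.31 and -4.28 (NC). Like CAPN8, it was not detected on either NC array, and it was at least 3.52-fold higher with miR-629-3p than with NC (fitted difference 2.78, SE 0.51, adjusted p = 0.0218). The other 5 genes tested were not called, and the median of the 6 was 0.01. With miR-629-3p against NC, MUC6 differed by 0.03 (SE 0.23), TFF1 by -0.14 (SE 0.73), MUC5AC by -0.53 (SE 0.44) and TFF2 by 0.55 (SE 0.42). The MUC6 and TFF1 probes used were detected on all 8 arrays. COPB1, whose protein is known to bind CAPN8, read between 4.87 and 5.04 on all 8 arrays.

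The genes on either side of CAPN8 on chromosome 1 were compared with it, taking the order from the RefSeq table of GRCh38.p14. On one side lie SUSD4 and CCDC185, and on the other CAPN2 and TP53BP2. The brightest SUSD4 probe, detected on all arrays, differed by 0.03 (SE 0.08, adjusted p = 0.845) between miR-629-3p and NC, and its 3 other probes were detected on at most 1 array. CCDC185 was detected on no array. TP53BP2, which encodes a p53-binding protein, differed by 0.26 (SE 0.09, adjusted p = 0.117). With CAPN2 at 0.39, none of the measured neighbours had a difference near the bound for CAPN8.

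The genes whose signals over the 8 arrays were most like those of CAPN8 (Pearson r of log2 signals, a description over arrays that include the substitutes) were DMBT1 (r = 0.992), lnc-RNF208-1 (r = 0.992), MAFG (r = 0.987), LOC100288798 (r = 0.986) and LPIN1 (r = 0.985). In all, 563 of 21283 genes had r above 0.9. DMBT1, a secreted mucin-like protein of epithelia, read -0.65 and -1.04 with miR-629-3p and between -5.12 and -3.20 on the other arrays, and it was detected only on both miR-629-3p arrays. MAFG, a small transcription factor that pairs with NRF2, and LPIN1, a phosphatidate phosphatase, were detected on all arrays and spanned far less. MAFG ranged from 3.38 to 4.02 and LPIN1 from 3.44 to 4.34.

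**Figure D5:**
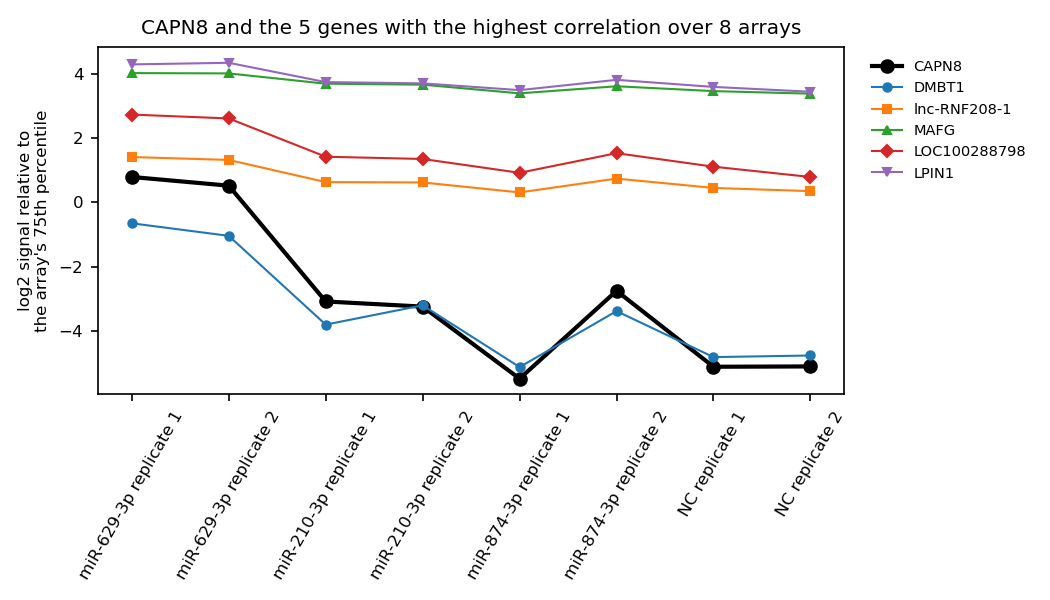
Signal (log2 relative to the array's 75th percentile, y axis) of CAPN8 and the 5 genes most correlated with it on the 8 arrays (x axis), with lines that only join the points of a gene. CAPN8 and DMBT1 drop by several log2 units from the miR-629-3p arrays to the others, and the 4 remaining genes by less than 2.

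The labelled cell type was checked by its markers. All 7 markers listed for squamous epithelium (KRT5, KRT14, KRT6A, KRT17, TP63, EPCAM and CDH1) were detected on all arrays, with a summed level, in multiples of the 75th percentile, of 262 to 265 (miR-629-3p), 287 to 289 (miR-210-3p), 297 to 321 (miR-874-3p) and 294 to 297 (NC). The sums add signals of different probes and are weighted towards the brightest, so sums of different lists cannot be compared. EPCAM was the brightest of the 7, at 7.66 and 7.68 with miR-210-3p against 7.29 and 7.28 with NC, so the sum need not follow the other markers. Of these 7, 3 fell and 0 rose with miR-629-3p, where 7.47% of all genes fell and 9.28% rose. With miR-210-3p 3 fell and 0 rose, where 2.20% of all genes fell and 3.85% rose. The genes that fell were not all the same with the 2 mimics. After miR-874-3p 0 were called, where 0.216% of all genes rose and 0.207% fell. Of the fibroblast markers COL3A1, DCN and LUM were detected on no array, and the summed level of all 4, which includes undetected signals, was 0.151 to 0.166, 0.405 to 1.52, 0.243 to 0.254 and 0.189 to 0.201 in the same order. The 2 leukocyte genes on the array, PTPRC and CD3E, summed to 0.284 to 0.860 over all arrays. The PTPRC probe used was detected on all 8 arrays and a second one (A_33_P3309526) on 7, while the remaining PTPRC probes were detected on none. The highest sum was that of NC replicate 1, where CD3E read -0.82 against -4.22 on NC replicate 2. The endothelial markers PECAM1, VWF and CDH5 summed to 2.52 to 2.73 with miR-629-3p and to 1.29 to 1.62 on the other arrays, and the probes used for VWF and CDH5 were detected on all arrays. Of these 3, VWF rose by 0.90 with miR-629-3p, where 9.28% of all genes rose (SE 0.14, adjusted p = 0.0146), and its part in the CAPN8 result was not tested.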

How the data were processed

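Gene expression arrays of 4 groups with 2 arrays each were analysed, grouped and numbered by the sample labels. For each array the authors deposited the intensity output of Agilent Feature Extraction 11.5.1.1 (version from the submitters' processing notes). It holds the background-subtracted processed signal and flags, without normalization between arrays. A series table of log2 values, also deposited by the authors, covers the same arrays. Set against the scanner values it was log2 signal minus the 75th percentile, with offsets of -0.049 to 0.004 and all probes within 0.05. Its column medians were -3.676 to -3.36.

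From the processed signal, log2 was taken minus the 75th percentile of each array over its gene probes. Control spots were dropped, as were 87 to 346 outlier spots an array (of 60901), and no spot was saturated. Kept probes had a value on all 8 arrays and, in some group, signal well above background on both arrays. The brightest probe of each gene name was used, which left 21283 genes. Between 42.2% and 49.8% of probes were well above background. The number of arrays sets the precision. The 8 arrays were fitted together with limma 3.58.1 (lmFit, eBayes) in R 4.3.3, with 4 residual and 1.68 prior degrees of freedom and Benjamini-Hochberg adjustment. Second probes were fitted with all detected probes. A bound on a fold sets the bright group's mean against the dimmest signal well above background on each array of the dim group. The fit was tested on simulated data.

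The calpain genes, the other lists and the tests were chosen with earlier results of these data known. Named genes were every calpain gene, up to 3 called genes of each list in each direction and contrast with the largest difference, the 5 genes most correlated with CAPN8, and its 4 neighbours. Called cell type markers are given as counts, with VWF named after its value was seen. Alternatives were normexp with an offset of 50, quantile normalization, median centring, the deposited log2 table, outlier spots kept, a floor, no filter or a stricter one, every probe, the mean of probes, only 2 groups, a trend, the replicate block, the methods' t-test, the study's threshold, and each array left out.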

Additional observations from a re-analysis of the deposited data

How the results depend on the processing

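The CAPN8 difference between miR-629-3p and NC (5.76) stayed above 0 in all alternatives run. It was 1.69 with normexp, whose offset of 50 is added to NC signals of about 2, 6.16 with quantile normalization, 3.48 with a floor at the dimmest detected signal and 4.16 as the mean over probes. Against miR-210-3p (3.81) it was 1.56 with normexp and 3.47 over probes, and against miR-874-3p (4.77) it was 1.62 with normexp. Leaving out arrays moved these 3 differences within 5.62 to 5.90, 3.68 to 3.95 and 3.41 to 6.13. The filter on detection on all 8 arrays removed CAPN8.

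The count of calpain genes called in miR-629-3p against NC (3) was 5 with every probe counted, 0 with the methods' t-test, 1 at the study's threshold and 0 to 3 with arrays left out. In miR-210-3p against NC (1) it was 0 without a detection filter, with the t-test and at the study's threshold, and 0 to 2 with arrays left out. In miR-874-3p against NC (0) it was 0 to 1 with arrays left out. Between miR-210-3p and miR-874-3p (1) it was 0 without a filter, with only 2 groups, with the t-test and at the study's threshold, and 0 to 2 with arrays left out. The other alternatives except the replicate block, given below, kept these counts within 1.5 times. Where a count was lost the cause was not tested. The count in miR-629-3p against NC includes CAPN8, which was chosen in that contrast, and is a description. The substrate count of miR-629-3p (4) was 8 with normexp and 2 without a filter, and that of miR-210-3p (3) was 5 and 1. The gastric count of miR-629-3p (1) was 3 without a filter.

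Same-numbered arrays did not deviate together (correlations -0.11 to 0.03), so replicate numbers name the arrays only. With the replicate block the counts were 2 for miR-629-3p, 0 for miR-210-3p and 0 for miR-874-3p against NC, and 0 between miR-210-3p and miR-874-3p, and the CAPN8 differences were 5.76, 3.81 and 4.77. Without a detection filter the median of all genes against NC moved to -0.17 for miR-629-3p, -0.11 for miR-210-3p and -0.09 for miR-874-3p. Signals below about -2.8 on the NC arrays have only an upper limit, which is what limits the CAPN8 differences from NC. CAPN9 was detected on no array of any group. The brighter CAPN13 probe was near the limit of detection, and its NC arrays lay far apart (-3.99 and -2.22).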
